A study of Mus musculus with 6 samples.

Results

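The tetraspanin and integrin genes were compared between wild-type (Wt) testes and testes of mice with 2 Fn alleles of Dazap1 (Fn). Genes entered by name alone: every Tspan gene with a number, every gene whose symbol starts with Itga or Itgb, and the tetraspanins Cd9, Cd37, Cd53, Cd63, Cd81, Cd82 and Cd151. By this rule 54 of the 18193 genes with a probe set of their own on the array were taken, read by 121 probe sets, and Cd63 matched no probe set in the annotation used here. They comprised 25 tetraspanins, 25 integrin chains and 4 genes that carry an integrin name without encoding a chain (Itgb1bp1, Itgb1bp2, Itgb3bp and Itgbl1).

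Tetraspanins are membrane proteins that cross the membrane with several helices and gather integrins, immunoglobulin-type partners and proteases into patches of the cell surface. Integrins are pairs of an alpha and a beta chain that hold cells to matrix proteins or to other cells and link them to actin inside. In the testis, alpha 6 and beta 1 integrin and CD9 are known on the surface of spermatogonial stem cells, integrins hold Sertoli and peritubular cells to the basement membrane, and CD9 on the egg is needed for sperm-egg fusion.

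Each genotype was represented by 3 samples of whole testes at postnatal day 21, taken from mice of mixed C57BL/6 and 129 background, with no treatment, and each sample was read on a separate one-colour Affymetrix mouse array. The Fn allele (floxed with Neo) still makes a DAZAP1 protein, which carries an inserted segment between its RNA-binding domains, in every cell and not in germ cells alone. Few homozygotes survive birth, and they are growth-retarded. The labels call the 3 samples of a genotype biological replicates, and the methods speak of different RNA preparations without saying how many animals stood behind each. Whole testis RNA was measured, so more cells of a type and more RNA per cell cannot be told apart for any gene described here.

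The values are MAS5 signals, a linear intensity for each probe set (the group of short probes that reads one transcript), on arrays already brought to one level. Log2 signals were tested with limma, a linear model that shares its estimate of spread across probe sets, and p-values were adjusted by Benjamini-Hochberg over the 27022 probe sets with a geometric mean signal of at least 48.0, the 40th percentile. A gene was read by its brightest probe set, and "higher", "rose", "lower" and "fell" stand for an adjusted p under 0.05. Over the 13447 genes tested the median log2 change, Fn minus Wt, was 0.32 as deposited and 0.17 after centring each array on its median, so changes are to be read against that shift. Dazap1 itself had signals of 4323, 4462 and 5046 in Wt and 2538, 2735 and 2820 in Fn testes (limma adjusted p = 6.7e-05), which checks the labels only as far as this probe set reads the mutant transcript.

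Most tetraspanins tested were higher in Fn testes, integrin chains were higher at about the share of all genes, and a few genes had large falls. Of the 54 genes, 40 passed the filter on dim signals, and of these 24 were higher, 5 were lower and 11 did not pass the test. Over all 13447 genes tested, 44.9% were higher and 24.7% were lower. The median log2 change of the 40 was 0.69, or 0.37 above the median of all genes. More than 2-fold differences were found upwards in 7 and downwards in 3 of the 40, where 11.8% and 13.9% of all genes differed that much. All 3 Fn signals lay beyond all 3 Wt signals in 34 of the 40, against 75.6% of all genes. After centring each array on its median, 19 of the 40 were higher and 5 lower, when 33.1% of all genes were higher and 27.4% lower. With that centring, more than 2-fold differences were found upwards in 4 and downwards in 4 of the 40.

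**Figure D1:**
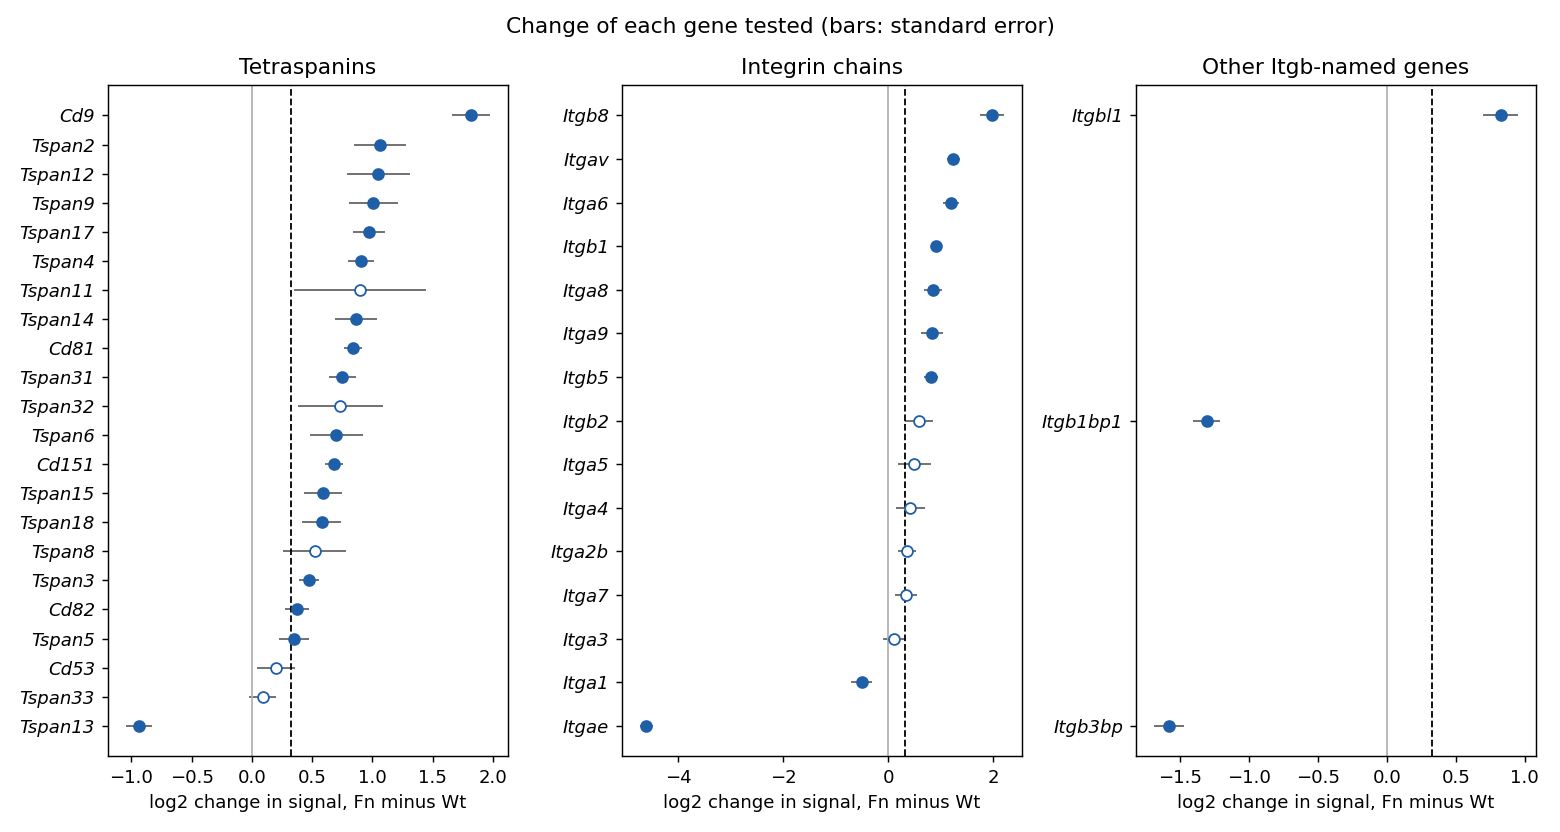
Difference in log2 signal between Fn and Wt testes for the 22 tetraspanins, 15 integrin chains and 3 other Itgb-named genes tested, with standard errors as bars, from 3 arrays per genotype. Genes that passed limma (adjusted p under 0.05) are filled and the rest open, grey marks 0, dashes mark 0.32, where the median gene lies, and the horizontal scales differ between panels. Cd9 at 1.82 and Itgb8 at 1.98 lie farthest to the right, and Itgae at -4.61 lies far to the left of the other chains.

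Cd9 had the largest rise among the tetraspanins and ranked 36 among the rises of all 13447 genes. Its signal was 463, 479 and 334 in Wt and 1637, 1353 and 1465 in Fn testes. Every Fn array lay far above the highest Wt array, and the 3 Fn arrays lay close together. The log2 change was 1.82 (standard error, SE, 0.16, limma adjusted p = 1.1e-05), a 3.53-fold difference between geometric means, and it ran from 1.65 to 1.91 over 16 other settings of the processing. Cd9 was read by 1 probe set. Its promoter is shown because it belongs to the strongest riser of the family, from the RefSeq annotation of GRCm38.p6, chr6:125494711-125495010 on the minus strand, running from 250 bases before the start of the gene to 50 bases into it. Capitals mark GC boxes, the sequence GGGCGG on either strand, which is the core of the binding site of SP1-type factors.
Cd9: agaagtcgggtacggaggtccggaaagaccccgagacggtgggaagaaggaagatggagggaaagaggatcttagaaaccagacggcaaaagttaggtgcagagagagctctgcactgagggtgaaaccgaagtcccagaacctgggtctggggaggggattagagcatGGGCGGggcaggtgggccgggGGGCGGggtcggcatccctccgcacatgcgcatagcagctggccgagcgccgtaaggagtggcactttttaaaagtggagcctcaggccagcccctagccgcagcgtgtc

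Other tetraspanins rose by about 2-fold. Tspan2, known from oligodendrocytes, had signals of 162, 99.8 and 157 in Wt and 311, 253 and 296 in Fn testes, a log2 difference of 1.07 (SE 0.22, limma adjusted p = 0.0020). Its other probe sets tested gave 0.92 and 0.89, so the 3 moved together and no Fn array overlapped a Wt array. Tspan12, which helps the receptor Frizzled 4 respond to norrin in retinal vessels, had 136, 88.0 and 94.3 in Wt and 212, 162 and 290.2 in Fn testes. The groups did not overlap, yet the Fn arrays spread widely, and the log2 change of 1.05 had a SE of 0.26 (limma adjusted p = 0.0062). Tspan9, a tetraspanin described in platelets, had 296, 451 and 272 in Wt and 621, 803 and 594 in Fn testes (log2 change 1.01, SE 0.20, limma adjusted p = 0.0020). Wt array 2 was the highest of its group and still lay under the lowest Fn array. Tspan4, which is used as a marker of migrasomes, the vesicles that moving cells leave behind, went from 606, 605 and 549.9 to 1070.0, 1064 and 1160 (log2 change 0.90, SE 0.11, limma adjusted p = 8.4e-05).

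Cd81, the closest relative of Cd9 and, like it, a protein of the egg membrane and of vesicles, had signals of 4800, 4473 and 4093 in Wt and 7838, 7944 and 8075 in Fn testes. The Fn arrays were nearly equal and far above the Wt arrays (log2 change 0.84, SE 0.076, limma adjusted p = 1.7e-05). Cd151, which binds the laminin receptors alpha 3 beta 1 and alpha 6 beta 1 directly, went from 2629, 2622 and 2558 to 3996, 4194 and 4317 (log2 change 0.68, SE 0.075, limma adjusted p = 5.5e-05). It was read by 5 probe sets above the filter, and each rose, by 0.50 to 1.04 on the log2 scale. Smaller rises were found for Tspan31 (0.75, but -0.34 and not passed as the mean of its 3 probe sets), the X-linked Tspan6 (0.70), Tspan18 (0.58), Tspan3 (0.48) and Cd82 (0.38), which is known as a metastasis suppressor. Those of Tspan3 and Cd82 differed from the median of all genes, 0.32, by 0.15 and 0.05. After centring each array on its median, Cd82, Tspan18 and Tspan6 no longer passed (limma adjusted p of 0.20, 0.055 and 0.050). Tspan6 also lost its call without Wt array 2 (0.066), Wt array 3 (0.071) or Fn array 1 (0.068), and Tspan18 without Fn array 1 (0.051).

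A subgroup named TspanC8 for its 8 extracellular cysteines carries the protease ADAM10 to the cell surface, and it holds Tspan5, Tspan10, Tspan14, Tspan15, Tspan17 and Tspan33. This grouping was chosen after the values were seen. Of the 5 tested, 4 were called higher by their brightest probe sets, where 44.9% of all genes were, with a median log2 change of 0.59, or 0.27 above that of all genes. The 4 include Tspan5, whose second probe set fell, and Tspan15, which did not pass after centring each array on its median (limma adjusted p = 0.074). Tspan17 had signals of 1459, 1607 and 1196 in Wt and 2742, 2427 and 3172 in Fn testes (log2 change 0.97, SE 0.14, limma adjusted p = 2.2e-04), and its second probe set gave 0.64. Tspan14 rose by 0.87 and Tspan15 by 0.59. Tspan33 had 852, 822 and 739 in Wt and 882, 906 and 779.6 in Fn testes, and these groups overlapped (log2 change 0.09, limma adjusted p = 0.51). None of its 4 probe sets tested passed. Tspan10 lay under the filter. Adam10 itself went from 2379, 2231 and 1967 to 4413, 3841 and 4034, a log2 difference of 0.90 (SE 0.097, limma adjusted p = 4.8e-05), and 3 of its probe sets tested rose together.

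The 2 probe sets of Tspan5 gave opposite answers. The brighter had signals of 1147, 1156 and 1290 in Wt and 1501, 1317 and 1792 in Fn testes, a log2 difference of 0.35 (limma adjusted p = 0.034). The dimmer had 681, 723 and 827 in Wt and 477, 455 and 549.9 in Fn testes, a log2 difference of -0.59 (limma adjusted p = 0.0032). In neither did the genotypes overlap, so Tspan5 counts among the higher genes only by the choice of its brightest probe set. Even that call was lost in 7 of 16 other settings of the processing, and in 1 more the change was negative. Its adjusted p from limma ran up to 0.41 over these settings. The sources used here do not say which transcripts each probe set reads. Of the 19 genes of this set with more than 1 probe set tested, Tspan5 was the 1 with calls in both directions.

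Tspan13, also called NET-6, was the 1 tetraspanin tested that fell. Its signals were 1116, 1085 and 1026 in Wt and 576, 597 and 516 in Fn testes. The Fn arrays were 1.91-fold lower by geometric mean, with no overlap (log2 change -0.94, SE 0.11, limma adjusted p = 8.3e-05), or 1.26 below the median of all genes. The other probe set of Tspan13 also fell, by 0.55 on the log2 scale (limma adjusted p = 0.0017). Its promoter is set beside that of Cd9 as that of the family member which moved the other way (RefSeq, GRCm38.p6, chr12:36042429-36042728, minus strand, GC boxes in capitals).
Tspan13: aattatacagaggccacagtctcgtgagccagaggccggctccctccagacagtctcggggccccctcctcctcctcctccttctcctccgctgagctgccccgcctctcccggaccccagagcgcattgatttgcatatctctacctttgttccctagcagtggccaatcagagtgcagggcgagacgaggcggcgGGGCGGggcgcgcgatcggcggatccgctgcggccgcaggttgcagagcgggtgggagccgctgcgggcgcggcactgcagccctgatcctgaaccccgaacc

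The promoter windows of both genes hold GC boxes, with 2 in that of Cd9 and 1 in that of Tspan13, so this feature did not separate the riser from the faller. Windows of 300 bases were found for 45 of the 54 genes. A GC box was present in 59.1% of the 22 higher genes with a window, in 1 of the 4 lower genes and in 38.2% of all 27025 genes. Among all 45 it was in 48.9%. Some genes have more than 1 window, with 32 for the 22 higher genes, which raises a share counted by gene. Counted by window, the shares were 46.9% for the higher genes and 35.7% for all. The 27025 are all annotated genes with a window and not the genes tested, and enrichment was not tested. The letters TGACGTCA, the palindromic site of CREM and CREB, were in 0 of the 45 and in 2.03% of all genes. These are matches of letters in short windows and not measured binding.

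Of the 22 tetraspanins tested, 16 rose, or 72.7% against 44.9% of all genes, 1 fell and 5 did not pass the test. Their median log2 change was 0.72, against 0.32 for all genes, and 19 of the 22 lay above the median of all genes. The 16 became 11 after centring each array on its median, when 33.1% of all genes were higher, and 12 with the mean of all probe sets of a gene, when 37.4% were. Those that did not pass were Cd53, Tspan8, Tspan11, Tspan32 and Tspan33. Tspan8, known as a surface marker of spermatogonia with stem cell activity, had 60.0, 82.3 and 61.7 in Wt and 113, 94.4 and 84.5 in Fn testes, close to the filter level (log2 change 0.52, limma adjusted p = 0.11). Cd53, a leukocyte tetraspanin, had 197, 207 and 185 in Wt and 215, 212 and 251 in Fn testes (log2 change 0.20, limma adjusted p = 0.29). Tspan11 and Tspan32 had log2 changes of 0.90 and 0.74 with standard errors of 0.55 and 0.35. When same-numbered arrays were paired as a replicate block, both passed, each at an adjusted p of 0.029 from limma, and 18 tetraspanins were then higher.

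**Figure D2:**
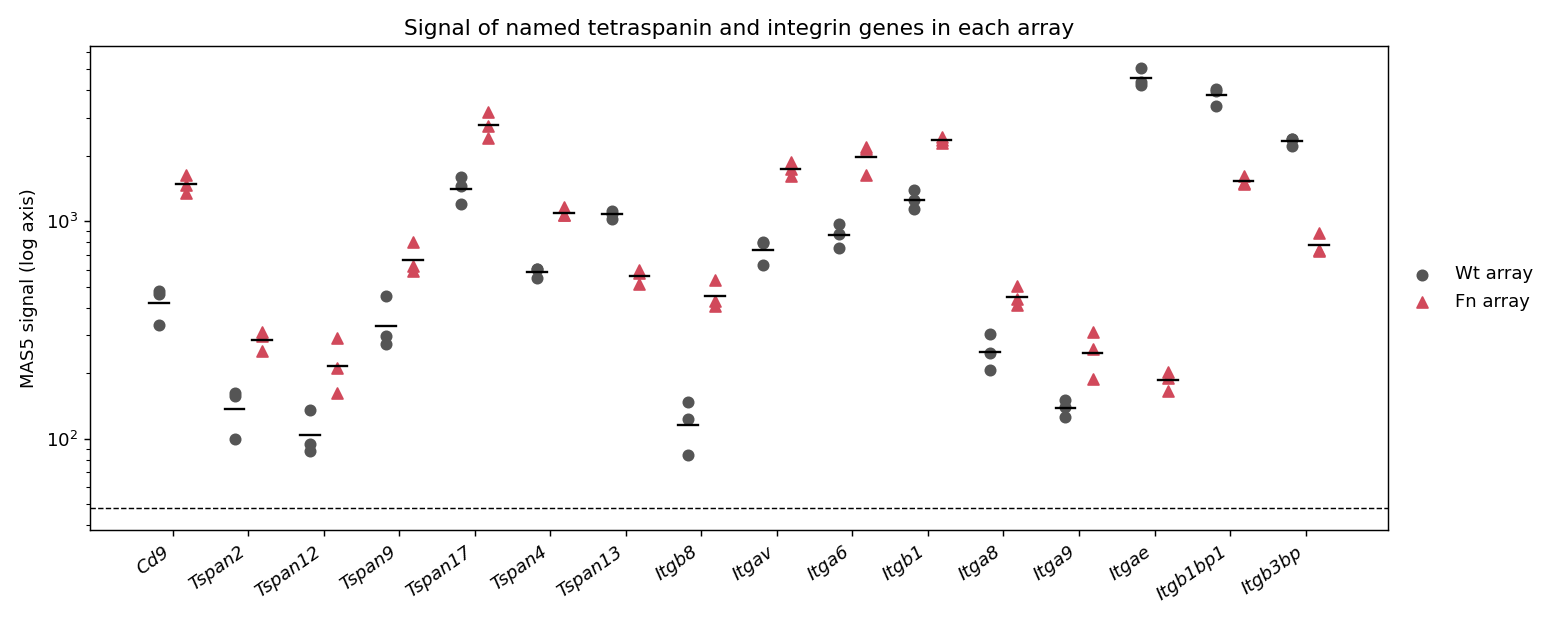
MAS5 signal on a log axis of 16 named genes, with circles for the 3 Wt and triangles for the 3 Fn arrays, from testes at postnatal day 21, with geometric means as short bars and the filter level of 48.0 as a dashed line. Levels of different genes are read by different probes and are not to be set against each other. The tetraspanins and chains shown were chosen for having no overlap between genotypes, as 75.6% of all genes tested have, and Itgb1bp1 and Itgb3bp were added after their values were seen, with Fn below Wt for Tspan13, Itgae, Itgb1bp1 and Itgb3bp and above it for the others.

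Among the integrins, Itgb8 had the largest rise of the 15 chains tested and ranked 21 among the rises of all genes. It encodes the beta 8 chain, which pairs with alpha v and releases active TGF-beta from its latent complex. The signals were 148, 124 and 83.9 in Wt and 539, 429.6 and 408 in Fn testes. Each Fn array lay far above the highest Wt array, a 3.95-fold difference between geometric means (log2 change 1.98, SE 0.22, limma adjusted p = 6.6e-05). It was read by 1 probe set and ranged from 1.75 to 2.16 over 16 other settings. Its promoter is shown as that of the strongest riser among the chains (RefSeq, GRCm38.p6, chr12:119238227-119238526, minus strand), and unlike that of Cd9 it holds 0 GC boxes, so no letters are in capitals.
Itgb8: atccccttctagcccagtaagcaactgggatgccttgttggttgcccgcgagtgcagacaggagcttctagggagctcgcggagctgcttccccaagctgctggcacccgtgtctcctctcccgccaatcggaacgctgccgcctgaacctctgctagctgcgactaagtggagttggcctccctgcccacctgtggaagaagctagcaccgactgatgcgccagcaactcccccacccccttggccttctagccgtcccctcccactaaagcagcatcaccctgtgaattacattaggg

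Itgav, the alpha v chain that partners beta 8, beta 5 and other beta chains and reads the RGD motif of matrix proteins, had 794, 801 and 632 in Wt and 1873, 1748 and 1616 in Fn testes (log2 change 1.24, SE 0.12, limma adjusted p = 3.0e-05). Its second probe set above the filter also rose, by 0.94. With the mean over all 5 of its probe sets, of which 3 lie under the filter, the log2 change was 0.47 and did not pass (limma adjusted p = 0.19). Itgb5 rose by 0.82, and its 4 probe sets gave 0.81 to 1.09. The 3 chains of the alpha v beta 5 and alpha v beta 8 receptors were thus all higher by their brightest probe sets.

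Itga6, the alpha 6 chain of a laminin receptor, had signals of 977, 873 and 753 in Wt and 2158, 1634 and 2205 in Fn testes. The lowest Fn array was well above the highest Wt array (log2 change 1.20, SE 0.14, limma adjusted p = 9.4e-05), and the second probe set gave 0.93. Its partner Itgb1, which pairs with more alpha chains than any other beta chain, had 1391, 1135 and 1258 in Wt and 2438, 2288 and 2357 in Fn testes (log2 change 0.91, SE 0.10, limma adjusted p = 5.7e-05). A second probe set of Itgb1 gave 0.97 and the third above the filter 0.24 (limma adjusted p = 0.51). The mean over its 6 probe sets was 0.29 and did not pass (limma adjusted p = 0.47).

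Other alpha chains that pair with beta 1 rose by less than 2-fold. Itga8, a receptor for nephronectin that is known for its part in kidney development, went from 305, 247 and 207 to 439, 507 and 411 (log2 change 0.85, SE 0.17, limma adjusted p = 0.0020). Itga9, which binds tenascin and VCAM1, went from 151, 139.9 and 126 to 187, 259 and 311 (log2 change 0.84, SE 0.21, limma adjusted p = 0.0069). In these brightest probe sets the genotypes did not overlap. The second probe set of Itga8 also rose, by 0.98, but that of Itga9 had 138, 59.6 and 85.5 in Wt and 156, 84.1 and 121 in Fn testes, which overlap (log2 change 0.39, limma adjusted p = 0.35). Of 22 known alpha-beta pairs in this set, 11 had both chains tested, and in 6 of those both chains were higher, 4 of them with Itgb1 and 3 with Itgav. The pairs share chains and are not independent of each other. Most of those 11 hold Itgb1, which was itself called higher, so the count largely restates the calls of the alpha chains. Of the alpha chains tested 36.4% were higher, against 44.9% of all genes, so the pair count is no result about the family.

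Itgae had by far the largest change of all chains tested and ranked 147 among the falls of all 13447 genes. It encodes alpha E, which pairs with beta 7 on lymphocytes within epithelia and binds E-cadherin. The signals were 4225, 4382 and 5077 in Wt and 191, 204 and 165 in Fn testes. Each genotype was tight, and the Fn arrays were 24.5-fold lower by geometric mean (log2 change -4.61, SE 0.12, limma adjusted p = 7.5e-08). A second probe set went from 2176, 2101 and 2587 to 136, 146 and 118, a log2 difference of -4.10 (limma adjusted p = 1.1e-07), so both readings fell alike. Over 16 other settings the log2 change of Itgae ran from -4.77 to -4.36.

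Lymphocyte RNA was near the floor of these arrays in both genotypes. Of 11 leukocyte and lymphocyte genes with a probe set, 8 lay under the filter, among them Cd3d, Cd3e and Cd3g of the T cell receptor complex, and the partner chain Itgb7 had signals of 30.5, 18.3 and 14.7 in Wt and 67.4, 58.2 and 23.8 in Fn testes. The gene Haspin (Gsg2), which encodes a histone H3 kinase, lies within Itgae in the RefSeq annotation of GRCm38.p6. Haspin had signals of 4896, 5775 and 5580 in Wt and 389.8, 472 and 284 in Fn testes, a log2 difference of -3.85 (SE 0.17, limma adjusted p = 2.4e-07). Both genes were high in all Wt arrays and low in all Fn arrays. The paper had picked Haspin, as Gsg2, from the genes that fell in this same comparison, so its fall is no new reading. For the genes it picked, the paper reports a decrease by real-time RT-PCR. It reports no significant difference in their transcriptional rate or mRNA export, with data not shown. An Itgae-derived RNA that starts beside Haspin is known from testis, but the sources used here do not place the Itgae probe sets relative to it. Whether these values read full-length Itgae was not tested. The table of promoters used here holds no window for Itgae, and that of the nested gene is shown instead (RefSeq, GRCm38.p6, chr11:73138245-73138544, minus strand, 1 GC box in capitals).
Haspin: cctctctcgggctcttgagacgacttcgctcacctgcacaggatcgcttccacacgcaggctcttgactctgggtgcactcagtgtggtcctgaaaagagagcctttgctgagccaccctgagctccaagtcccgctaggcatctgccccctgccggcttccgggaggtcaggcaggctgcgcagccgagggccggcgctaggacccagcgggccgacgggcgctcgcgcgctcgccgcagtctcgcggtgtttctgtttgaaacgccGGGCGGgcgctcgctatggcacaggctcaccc

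Itga1, the alpha 1 chain of a collagen receptor, was the other chain called lower, and weakly. Its signals were 266, 238 and 284 in Wt and 159, 243 and 162 in Fn testes. Fn array 2 lay among the Wt arrays (log2 change -0.51, SE 0.20, limma adjusted p = 0.049). The call was lost when same-numbered arrays were blocked (limma adjusted p = 0.055), and the second probe set had a log2 difference of 0.64 (limma adjusted p = 0.17), so no direction is taken for this gene.

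Of the 15 integrin chains tested, 7 rose, 2 fell and 6 did not pass the test, with a median log2 change of 0.59 against 0.32 for all genes. The 7 are 46.7% of the chains, close to the 44.9% of all genes that were higher, so this count is no result about the family. By type of chain, 4 of 11 alpha chains and 3 of 4 beta chains rose. Chains that did not pass were Itga2b, Itga3, Itga4, Itga5, Itga7 and Itgb2, with log2 changes from 0.11 in Itga3 to 0.59 in Itgb2. Itga5, the fibronectin receptor chain, had 61.8, 61.2 and 66.8 in Wt and 67.4, 77.0 and 138 in Fn testes, where Fn array 3 stood far above the others (log2 change 0.50, SE 0.31, limma adjusted p = 0.19). Itga2b, the platelet chain, had 125, 115 and 127 in Wt and 155, 156 and 159 in Fn testes (limma adjusted p = 0.10), and Itgb2, the shared beta chain of leukocytes, had an adjusted p of 0.075.

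**Figure D3:**
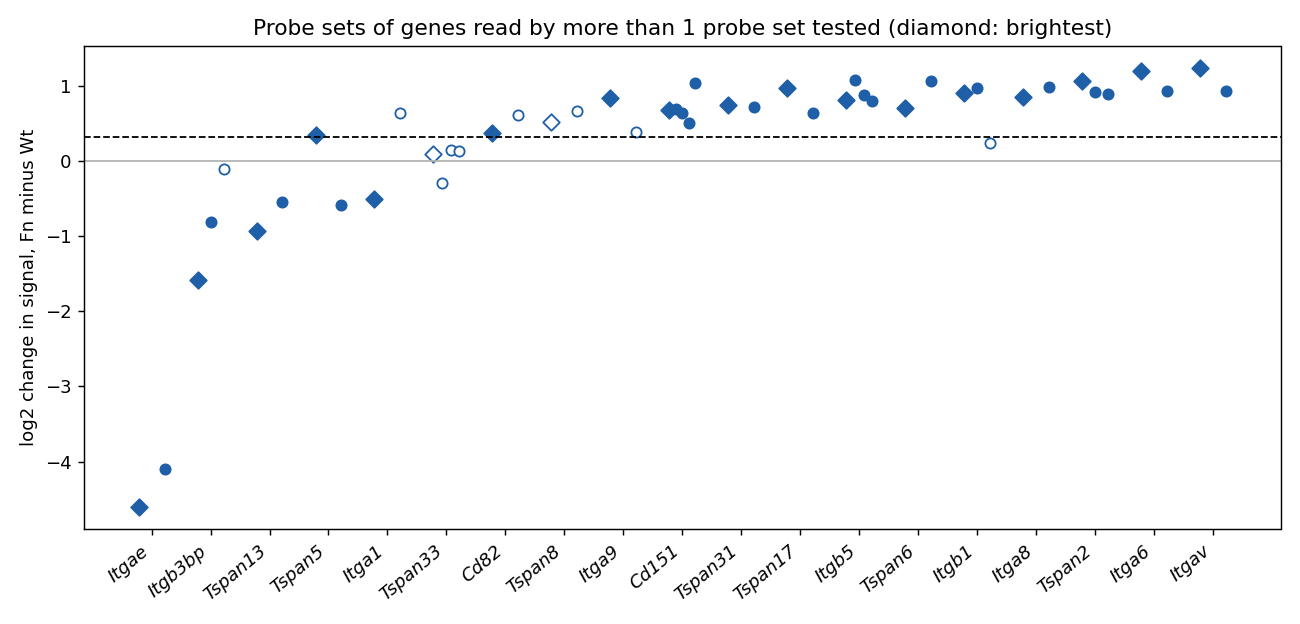
Difference in log2 signal between Fn and Wt testes for every probe set tested for the 19 genes read by more than 1 of them, ordered by the gene's median, with the brightest probe set as a diamond. Those that passed limma (adjusted p under 0.05) are filled and the rest open, grey marks 0 and dashes mark 0.32, where the median gene lies. Both probe sets of Itgae lie below -4, and Tspan5 is the gene with filled symbols on both sides of 0.

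The Itgb-named genes that are not chains included large falls. Itgb1bp1 encodes ICAP1, which binds the tail of beta 1 inside the cell and competes with the activator talin. Its signals were 4079, 3961 and 3383 in Wt and 1618, 1481 and 1508 in Fn testes. The Fn arrays were nearly equal and far below the lowest Wt array (log2 change -1.31, SE 0.097, limma adjusted p = 4.4e-06), while Itgb1 itself was higher. Itgb3bp, which despite its name encodes the kinetochore protein CENP-R, had 2402, 2385 and 2217 in Wt and 733, 881 and 735 in Fn testes (log2 change -1.58, SE 0.11, limma adjusted p = 2.4e-06). Its next probe set fell by 0.81 and the third had -0.11 (limma adjusted p = 0.76), and the mean over its 5 probe sets was -0.74 (limma adjusted p = 0.068). Itgbl1, a secreted protein related to beta chains, rose from 300.3, 276 and 272 to 486, 491 and 525 (log2 change 0.82, SE 0.13, limma adjusted p = 3.8e-04).

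The 14 genes under the filter were Cd37, Tspan1, Tspan10, Itga2, Itga10, Itgal, Itgam, Itgax, Itgb2l, Itgb3, Itgb4, Itgb6, Itgb7 and Itgb1bp2, with single signals from 1.7 to 122. They include the leukocyte chains Itgal, Itgam and Itgax. When all probe sets were tested with no filter, their adjusted p ran from 0.064 in Itgb3 to 0.94 in Tspan10 (limma). In 1 of them, Itgb2l, the genotypes did not overlap, with 17.6, 3.0 and 35.6 in Wt and 60.7, 39.0 and 56.5 in Fn testes (limma adjusted p = 0.086 with no filter).

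Partners of these proteins were read through lists put together with earlier results of these data known. Of 13 genes listed as tetraspanin partners and tested, 10 rose, 2 fell and 1 did not pass, where 44.9% of all genes rose and 24.7% fell. Their median log2 change was 0.65. The 2 that fell were the sperm gene Izumo2, described below, and Bsg. Signals of Bsg were 9152, 9079 and 8850 in Wt and 7807, 7969 and 7454 in Fn testes (log2 change -0.22, limma adjusted p = 0.010). Binding of the listed proteins to tetraspanins was not tested. Ptgfrn, an immunoglobulin-type protein that binds CD9 and CD81, had 138, 147 and 119 in Wt and 368, 405 and 349 in Fn testes (log2 change 1.48, SE 0.16, limma adjusted p = 4.8e-05). Its relatives Igsf3 and Igsf8 rose by 1.02 and 0.57, and Sdcbp, the syntenin of exosomes, by 0.71. These moved in the same direction as Cd9 and Cd81. Izumo2, a sperm protein related to the fusion protein IZUMO1, had 322, 199 and 291 in Wt and 26.4, 73.4 and 27.4 in Fn testes (limma adjusted p = 2.4e-04), at least 5.52-fold lower if the Fn group is taken at the filter level. Izumo1 itself was under the filter over the 6 arrays and at least 3.89-fold lower in the same terms, with 329, 90.6 and 218 in Wt and 3.0, 31.1 and 7.2 in Fn testes. Of 3 tetraspanins with other names, the uroplakins Upk1a and Upk1b and the photoreceptor protein gene Rom1, Upk1a rose (0.75) and the others did not pass.

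Ligands of integrins were mostly higher. Of 30 tested, 27 rose, 1 fell and 2 did not pass, against 44.9% and 24.7% of all genes, and the median log2 change was 0.86. The 9 laminin chains tested rose, by 0.56 to 1.25. The tenth, Lamb3, lay under the filter with 64.0, 34.4 and 46.2 in Wt and 11.8, 45.2 and 6.1 in Fn testes, and there the Fn arrays tended lower with overlap. Nid1, which ties laminin to collagen in basement membranes, had 1150, 1083 and 1127 in Wt and 2662, 2555 and 2824 in Fn testes (log2 change 1.26, limma adjusted p = 3.1e-06). Fn1, the gene for fibronectin, rose by 1.11 and Ccn2, a matrix protein also known as connective tissue growth factor, by 1.03. The exception was Adam2, a sperm surface protein called fertilin beta, with 10475, 10782 and 12380 in Wt and 1969, 2682 and 1633 in Fn testes (log2 change -2.45, limma adjusted p = 1.7e-06).

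Inside the cell, of 29 genes of integrin adhesion complexes tested, 21 rose, 3 fell and 5 did not pass, against 44.9% and 24.7% of all genes, with a median log2 change of 0.75. Vcl, the gene for vinculin, which anchors adhesions to actin, had 2496, 2642 and 1966 in Wt and 5369.9, 5477 and 5571 in Fn testes (log2 change 1.22, limma adjusted p = 1.6e-05). Tns3 rose by 1.04, and Fhl2, an adaptor with LIM domains, by 1.02. Tln1, the gene for talin 1, which switches integrins on, was counted as lower, but its probe sets disagreed. The brightest had 3052, 3029 and 3467 in Wt and 1017, 1299 and 857 in Fn testes (log2 change -1.61, limma adjusted p = 1.6e-05), and the next had 720, 825 and 828 in Wt and 1226, 1255 and 1796 in Fn testes (log2 change 0.83, limma adjusted p = 0.0012). Neither pair of groups overlapped, and no direction is taken for talin 1. The others that fell were Cib1, which binds the alpha IIb tail and is needed for spermatogenesis, by 0.88, and Lims2 by 0.52.

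**Figure D4:**
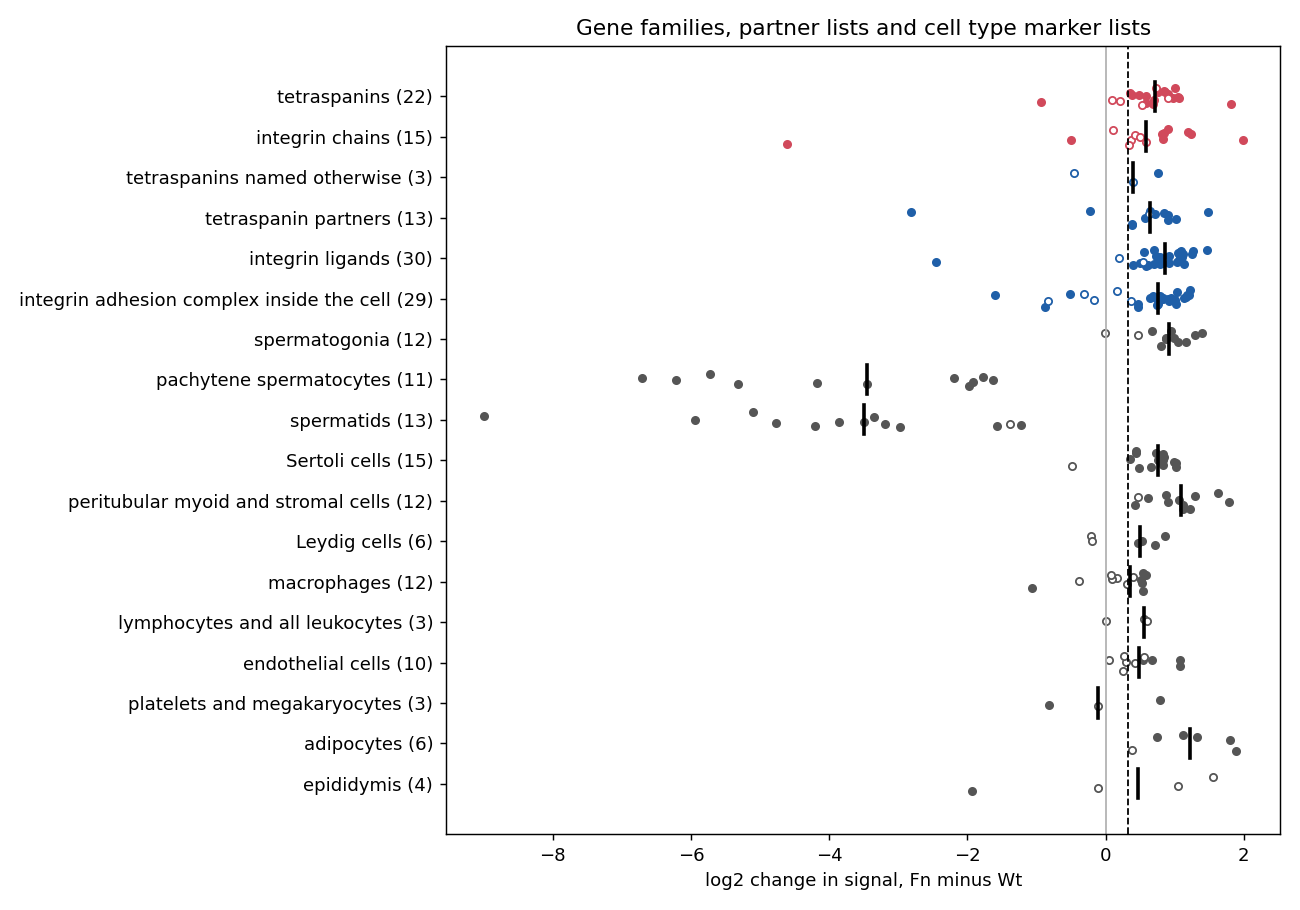
Difference in log2 signal between Fn and Wt testes, by gene, for the 2 families (red), 4 lists of related and partner genes (blue) and 12 lists of cell type markers (grey), with the number tested in brackets. Genes that passed limma (adjusted p under 0.05) are filled and the rest open, a black bar gives the median of a list, grey marks 0 and dashes mark 0.32, where the median gene lies. The tetraspanin and integrin medians, 0.72 and 0.59, lie on the side of the Sertoli, stromal and spermatogonial lists, and the pachytene and spermatid lists lie at -3.45 and -3.50.

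Markers of cell types that carry tetraspanins and integrins moved with genotype in the same arrays. Over all 13447 genes tested, 44.9% were higher and 24.7% were lower. Summed signals of 13 spermatogonial markers were 5989 to 7064 in Wt and 11153 to 13368 in Fn testes, and 10 of 12 tested rose. A sum is led by its brightest genes, here Dmrt1 (mean signal 2259 in Wt and 4680 in Fn testes) and Stra8 (1433 and 3186). For 15 Sertoli markers the sums were 66576 to 77176 and 105699 to 107503, and 14 rose. For 12 markers of peritubular myoid and stromal cells they were 26105 to 34541 and 57339 to 59977, and 11 rose. In contrast, 11 pachytene markers summed to 78646 to 87185 in Wt and 14124 to 19945 in Fn testes, and 11 fell. Of 13 spermatid markers tested, 12 fell and 0 rose, with sums over 16 markers of 28038 to 33334 and 2720 to 3445, where Tnp1, Tnp2 and Tssk2 lay under the filter. Markers of testis cells were thus bright in the Wt arrays. The paper had picked Ccna1, Nlrp14, Ovol1, Piwil1 and Tssk2 from the genes that fell in this same comparison. The falls of the pachytene and spermatid lists are therefore partly set by their makeup and are not independent of these data. The first 3 lists moved in the direction of Cd9, Itgb8 and the other risers. The pachytene and spermatid lists moved in that of Itgae, Itgb1bp1, Itgb3bp and Tspan13. The part of cell composition in each of these changes was not tested. The paper describes testes of both genotypes at this age as holding mainly pachytene spermatocytes, with few haploid spermatids or none. It used adult Fn testes on exon arrays, concerned that growth retardation might leave day 21 Fn pachytene cells at an earlier stage. Developmental stage and genotype cannot be told apart in these arrays.

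Other cell types moved less evenly. Adipocyte markers summed to 1412 to 3754 in Wt and 4092 to 7966 in Fn testes, and 5 of 6 tested rose, with Lep under the filter. Of 10 endothelial markers 4 rose and 0 fell, with sums of 1257 to 1421 and 1966 to 2347. Of 6 Leydig cell markers 4 rose, with sums of 7031 to 10961 and 7455 to 13690.4, which overlap. Of 12 macrophage markers 5 rose and 1 fell, with sums of 5500.0 to 7007 and 7042 to 9767. The endothelial and macrophage shares that rose, 40% and 41.7%, were near the 44.9% of all genes. These counts are no result about those cells. Leukocyte markers summed to 572 to 838 and 695 to 1162, and of 3 platelet markers tested 1 rose and 1 fell, with sums of 781 to 926 and 1163 to 1297. Pf4 led the platelet sum and rose (mean signal 601 in Wt and 1029 in Fn testes). Gp5 fell (147 and 84.1) and Gp1bb did not pass. Of 4 epididymal markers tested 1 fell, near the 24.7% of all genes that were lower, with sums of 551 to 1934 and 1142 to 2762. That sum was led by Spink8, in which the genotypes overlapped. The part of these cell types in the rises of tetraspanins and integrins was not tested.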

How the data were processed

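The deposited values are linear MAS5 intensities of 45037 probe sets on 6 arrays (the submitters' processing notes give MAS5 with no version, and the paper names GeneSpring and a 2-fold threshold and no test). Detection calls were not used here. The 1 signal under 0.1 was set to 0.1, and log2 intensities were fitted in R 4.3.3 with limma 3.58.1 (lmFit, eBayes with an intensity trend) over the probe sets at or above the 40th percentile of the mean log2 signal. Probe sets took their gene from the platform annotation, in which 34945 name 1 gene and 932 several. Where a group's geometric mean was under the filter level of 48.0, the fold was taken against that level and written "at least".

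Members and lists were chosen with earlier results of these data known. The rule for named genes gave Cd9, up to 6 largest falls and rises per family with an adjusted p under 0.05 and no overlap, genes whose probe sets disagreed, and up to 4 genes per partner list by smallest p. Others were named after their values were seen. Across probe sets, Wt and Fn arrays with the same number deviated from their genotype means together (correlations of 0.13, 0.12 and 0.16, against -0.15 to 0.04 for other pairs), a pairing that neither the labels nor the paper state. Reported fits are unpaired, and the fit with the replicate number as a block is an alternative, given beside a result where it changes the call. The steps were tested on simulated data. Replicates correlated at 0.951 to 0.961 (Spearman) within a genotype, and the number of arrays limits the precision. Promoter windows were searched on both strands.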

Additional observations from a re-analysis of the deposited data

How the results depend on the processing

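Over 16 alternatives for each of the 40 genes tested (15 for Itga5, Tspan8 and Tspan11, which the filter at the median leaves out), 590 values kept their direction and their side of the threshold, 29 lost the call, 6 gained one and 12 changed sign. The number of integrin chains lower was 2, and 1 with no filter, with a prior variance without a trend, with the mean of probe sets, with the replicate number as a block, at an adjusted p under 0.01 and 1 to 2 without 1 array, the chain lost being Itga1. The median log2 change of tetraspanins was 0.56 after centring on array medians and 0.59 on 75th percentiles. That of all genes was 0.17 and 0.19 in these settings. With the block 18 tetraspanins were higher, since Tspan11 and Tspan32 then passed, and the block changed no call among the 40 other than these and Itga1.

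Sign changes came with the mean of probe sets for Itga1 (0.067), Itga3 (-0.13), Tspan5 (-0.12), Tspan31 (-0.34) and Tspan32 (-0.27), which brings in the other probe sets of each gene. Itga3 was -0.035 with quantile normalization, -0.045 with median centring, -0.016 with 75th percentile centring and -0.027 to 0.22 without 1 array (below 0 without Wt replicate 3), and Tspan33 was -0.0076, -0.069 and -0.040 in the first 3 of these. Neither passed the test in any setting. Leaving out 1 array ended the call of Itga1 in 5 of 6 cases, of Tspan5 without Wt replicate 1 or 2 or Fn replicate 1 or 3, of Tspan6 without Wt replicate 2 or 3 or Fn replicate 1 and of Tspan18 without Fn replicate 1 (adjusted p from 0.051 to 0.16 from limma). The cause of these changes was not tested beyond the construction of each alternative. Signals near 48.0 limit what can be said of the 14 genes under the filter.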
